A study of Mus musculus with 4 samples.

Results

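The Kupffer cell, myeloid and leukocyte genes are a list of 46 symbols that covers the resident macrophages of the liver and the blood cells found in it. Their values were chosen by 1 rule. Where a symbol had several transcripts, the 1 with most promoter-proximal signal on average over the 4 libraries was taken, so the promoter-proximal level chose the transcript, and no contrast between genotypes was used. Of the 46 symbols, 43 were found under their own name and 2 under an older name in the file (*Adgre1* as *Emr1*, *Spi1* as *Sfpi1*), which gave 45 of the 20642 symbols of the deposited table. *S100a8* was not analysed here. *Lyz1* had no promoter-proximal read in any library and stayed below the cutoff for active genes, which left 44 members among 12705 active genes. None of the 45 symbols had more than 1 transcript in the table, so the rule made no choice among transcripts.

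The data are 4 PRO-seq libraries of liver nuclei from C57BL/6 mice on day 14, with 2 WT libraries (WT1, WT2) and 2 *Hdac3* KO libraries (KO1, KO2). Precision nuclear run-on sequencing (PRO-seq) reads the RNA that engaged polymerases extend in isolated nuclei, here 20000000 nuclei per run-on. All mice carried Alb-Cre, a Cre driven by the albumin promoter and thus expressed in hepatocytes and their precursors. WT mice had the *Hdac3* genotype +/+ and KO mice F/F or F/-, so the deletion by Cre was designed for the hepatocyte lineage and not for leukocytes. The minus allele of F/- mice is null in every cell, so leukocytes in the KO pools may also carry a null allele. The nuclei of a library were pooled from several mice, and the paper describes the 2 libraries of a genotype as biological replicates. The spread between libraries is thus that of 2 pools per genotype, part of which may be technical, and p-values measure only that spread.

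Kupffer cells are macrophages that sit in the liver sinusoids, seed the liver before birth and maintain themselves there under signals through the CSF1 receptor. They are known by receptors for particles and dead cells such as *Clec4f*, *Vsig4*, *Timd4* and *Marco*, while monocytes that enter from blood carry *Ccr2* and *Cx3cr1*. The liver of a young mouse also holds lymphocytes, dendritic cells and, as blood formation moves to the bone marrow, the last granulocyte and erythroid precursors.

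The promoter-proximal value of a gene counts the reads of the fullest 50 bp window near its start, and the gene-body value counts reads from 1 kb after the start to the end of the gene. The reads counted on genes ran from 16628518 in KO2 to 26190040 in WT2, and their promoter-proximal share was 10.3% and 9.38% in the WT libraries and 13.6% and 17.0% in the KO libraries. The deposited values had been scaled by 1 factor per library. On that scale the median log2 fold change (KO over WT) of all active genes was -0.09 in gene bodies and 0.56 in promoter-proximal regions, so promoter-proximal values are also given relative to this shift or with median-of-ratios scaling within that region. *Hdac3* itself had 665 and 648 gene-body reads in the WT libraries and 609 and 582 in the KO libraries (log2 fold change -0.14, limma adjusted p = 0.41). The part of the gene that is deleted was not analysed separately, so these values do not check the labels. *Actb*, a common reference gene, had 1884 and 2011 gene-body reads in WT and 2838 and 2501 in KO (0.45, limma adjusted p = 0.0023).

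In gene bodies, 6 of the 44 active members were called higher in the KO libraries and 2 lower (limma with Benjamini-Hochberg adjustment, at a threshold of 0.05 for the adjusted p and 0.6 for the size of the log2 fold change). *Ccr2*, *Cd3e*, *Itgax*, *H2-Ab1*, *Cx3cr1* and *Cybb* were called higher, and the neutrophil gene *S100a9* and the B cell gene *Cd79b* lower. *Itgax* counted as active only through its KO level, so its call is no support for a rise, and the other 5 do not share this limit. Across all active genes 10.4% were called higher and 11.4% lower, so the share of members called higher, 13.6%, was near the background. The median log2 fold change of the members was 0.28 with 35 of 44 above 0, against -0.09 over all active genes. Without the fold threshold 19 members were higher and 4 lower at an adjusted p under 0.05, where 17.0% and 22.1% of all active genes were. Both KO libraries lay above both WT libraries for 28 members and below them for 5, against 27.6% and 42.8% of all active genes. Without KO1, 3 members were called higher, and without WT2 or KO2, 1 was called lower. The 2 KO libraries were not equal, since KO1 exceeded KO2 for 40 of the 44 members. The median log2 ratio of KO2 to KO1 over the members was -0.22, and that of KO2 to WT2 was 0.08, against 0.42 for KO1 over WT1. In a bulk sample, a change in the number of cells of a type and a change in the RNA made per cell cannot be told apart.

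**Figure D1:**
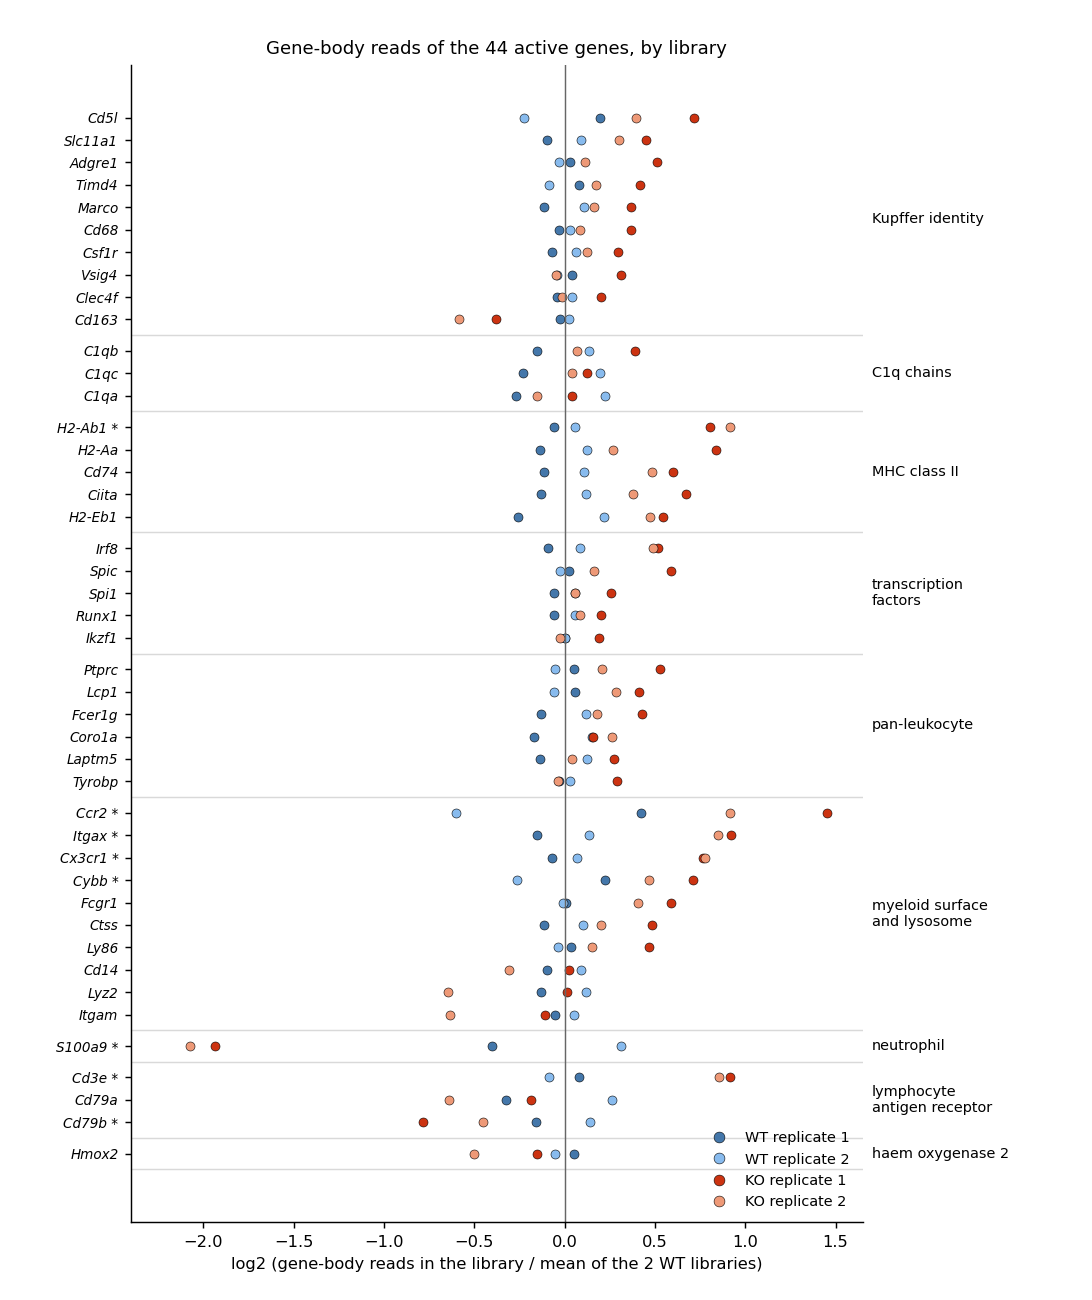
Gene-body reads of the 44 active members in each library as the log2 ratio to the mean of the 2 WT libraries, in groups by role, with an asterisk at the 8 genes called by limma. KO libraries (red) lie to the right of WT libraries (blue) for most rows, KO1 usually farther than KO2, and *S100a9* lies farthest to the left.

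The 6 promoters shown here come from called members that the RefSeq promoter table matched. They have the largest gene-body changes among those whose RefSeq start lies within 100 bp of the start of the measured transcript. They are given 5′ to 3′ from 250 bases before the start to 50 after it, from RefSeq on GRCm38.p6, whose coordinates mm10 shares. The RefSeq table matched 34 of the 44 active members. *H2-Ab1*, *Cd79b* and *Ciita*, called with larger gene-body changes than *Fcgr1*, were not matched and are not shown. *Ccr2* and *Cybb* are not shown, since their RefSeq starts lie 265 and 18442 bp from the measured ones. Capitals mark GAGGAA (the PU.1 core), CCAAT (the CCAAT box), TATAAA (the TATA box) and TTGCNNAA (a C/EBP motif), each searched on both strands, and no 2 matches overlap.
S100a9 (chr3:90695672-90695971, minus strand): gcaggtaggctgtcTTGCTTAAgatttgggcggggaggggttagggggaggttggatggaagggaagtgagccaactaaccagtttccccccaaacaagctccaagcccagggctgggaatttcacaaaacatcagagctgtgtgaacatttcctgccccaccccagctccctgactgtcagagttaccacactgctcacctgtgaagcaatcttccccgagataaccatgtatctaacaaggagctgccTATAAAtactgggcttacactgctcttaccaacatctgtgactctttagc
Cd3e (chr9:45009562-45009861, minus strand): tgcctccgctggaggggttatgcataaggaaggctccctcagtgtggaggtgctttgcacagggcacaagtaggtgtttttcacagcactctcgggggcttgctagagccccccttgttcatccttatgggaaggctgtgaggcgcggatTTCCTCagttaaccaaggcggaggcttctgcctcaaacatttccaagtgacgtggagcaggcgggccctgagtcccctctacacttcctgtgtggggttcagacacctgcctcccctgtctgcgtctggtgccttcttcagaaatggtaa
Itgax (chr7:128129300-128129599, plus strand): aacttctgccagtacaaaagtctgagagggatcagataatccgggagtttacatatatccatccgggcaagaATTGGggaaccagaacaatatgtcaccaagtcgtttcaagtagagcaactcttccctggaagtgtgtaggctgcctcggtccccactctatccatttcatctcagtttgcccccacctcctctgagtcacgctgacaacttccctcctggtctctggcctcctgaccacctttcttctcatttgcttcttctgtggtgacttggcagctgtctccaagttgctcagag
Cx3cr1 (chr9:120068247-120068546, minus strand): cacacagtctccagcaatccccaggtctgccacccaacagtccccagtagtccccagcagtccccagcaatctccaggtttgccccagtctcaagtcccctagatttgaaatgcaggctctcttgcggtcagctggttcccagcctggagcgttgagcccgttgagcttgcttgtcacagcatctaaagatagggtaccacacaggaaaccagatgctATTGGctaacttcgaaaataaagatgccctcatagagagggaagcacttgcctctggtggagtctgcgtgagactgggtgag
H2-Aa (chr17:34287774-34288073, minus strand): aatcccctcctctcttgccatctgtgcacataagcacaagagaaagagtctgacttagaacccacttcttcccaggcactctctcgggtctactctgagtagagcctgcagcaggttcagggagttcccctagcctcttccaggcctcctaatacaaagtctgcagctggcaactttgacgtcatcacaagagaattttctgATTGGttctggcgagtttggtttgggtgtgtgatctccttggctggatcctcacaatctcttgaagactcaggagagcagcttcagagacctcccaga
Fcgr1 (chr3:96293920-96294219, minus strand): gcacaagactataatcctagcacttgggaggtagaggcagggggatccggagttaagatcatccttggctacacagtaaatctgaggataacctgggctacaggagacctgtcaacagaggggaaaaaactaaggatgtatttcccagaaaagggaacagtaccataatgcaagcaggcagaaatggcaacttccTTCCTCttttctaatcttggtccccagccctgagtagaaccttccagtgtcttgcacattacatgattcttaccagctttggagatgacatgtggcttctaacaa

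The *S100a9* window holds a TTGCNNAA match 236 bases before the start and TATAAA at the annotated start itself. The *Cx3cr1* and *H2-Aa* windows hold CCAAT on the reverse strand, as ATTGG, 32 and 48 bases before the start, and *Itgax* has it 178 bases before. *Cd3e* and *Fcgr1* hold GAGGAA on the reverse strand, as TTCCTC. Over 32851 promoter windows of the same length, 28.3% held GAGGAA, 37.4% CCAAT, 13.6% TATAAA and 10.8% TTGCNNAA. Among the 42 windows of 34 active members, 38.1%, 31.0%, 11.9% and 4.76% did. A match gives the letters of a motif and does not show that a factor binds.

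None of the 10 genes of Kupffer cell identity was called in gene bodies in either direction by limma, edgeR or DESeq2. At an unadjusted p under 0.05, 5 were higher and 1 lower in each of these tests. Of the 12705 active genes, 5929 were higher or lower at that level in limma, a count that does not separate the directions. Without the fold threshold 4 of the 10 were higher and 1 lower at a limma adjusted p under 0.05, where 17.0% and 22.1% of all active genes were. Both KO libraries lay above both WT libraries for 7 of the 10 and below them for 1, against 27.6% and 42.8% of all active genes. *Clec4f*, the C-type lectin restricted to Kupffer cells in the mouse, was the strongest of the 10 per length with 372 gene-body reads per kb on average. Its gene body had 3689 and 3916 reads in the WT libraries and 4373 and 3767 in the KO libraries, so the groups overlapped (log2 fold change 0.09, SE 0.11). *Vsig4*, a receptor for complement fragment C3b, overlapped as well, with 1766 and 1673 reads in WT and 2131 and 1661 in KO. *Csf1r*, the receptor on which macrophage survival depends, had 4987 and 5463 reads in WT and 6409 and 5695 in KO. Both KO values lay above the WT values, but the difference did not pass the test (log2 fold change 0.21, SE 0.11, limma adjusted p = 0.14).

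*Adgre1*, which encodes the macrophage antigen F4/80, had 4255 and 4066 gene-body reads in WT and 5935 and 4505 in KO. *Timd4*, a receptor for phosphatidylserine on dying cells, had 1975 and 1758 in WT and 2489.7 and 2107 in KO. *Marco*, a scavenger receptor for bacteria and particles, had 1563 and 1818 in WT and 2184 and 1895 in KO. In all 3 genes the KO libraries were higher with log2 fold changes of 0.31, 0.30 and 0.27, all below the fold threshold, and *Marco* also missed the adjusted p (limma adjusted p = 0.074). The values leaned on KO1, since without it they were 0.11, 0.18 and 0.17, and without KO2 0.51, 0.42 and 0.37. *Slc11a1*, a metal transporter of the phagosome, had 531 and 604 reads in WT against 777 and 699.9 in KO (log2 fold change 0.38). *Cd5l*, a protein secreted by tissue macrophages, had the largest value of the group, 0.57 (SE 0.14, limma adjusted p = 0.0017), from 1450.2 and 1083 reads in WT and 2084 and 1667 in KO. It lay just under the fold threshold and was called with median-of-ratios scaling.

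*Cd163*, the scavenger receptor for haemoglobin and haptoglobin, went the other way. Its gene body had 1209 and 1256 reads in WT and 948 and 821 in KO, so both KO libraries lay below both WT libraries (log2 fold change -0.48, SE 0.12, limma adjusted p = 0.0028), short of the fold threshold. *Cd68*, a lysosomal glycoprotein, had 94.1 and 98.0 reads in WT and 124 and 102 in KO over a short gene body. *Cd68* starts 766 bp past the end of *Eif4a1* on the same strand, whose gene-body density of 313 reads per kb is above the 151 of *Cd68*. How much polymerase running past *Eif4a1* adds to *Cd68* was not tested.

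Promoter-proximally, 2 of the 10 Kupffer genes were called higher on the deposited scale, *Timd4* and *Slc11a1*, where 25.8% of all active genes were. *Timd4* had 68.8 and 38.0 reads in WT against 104 and 132 in KO (log2 fold change 1.18, SE 0.36, limma adjusted p = 0.0082). *Slc11a1* had 91.8 and 119 in WT against 167 and 217 in KO (log2 fold change 0.86, SE 0.33, limma adjusted p = 0.040). Against the shift of all genes these were 0.62 and 0.30, and neither was called with median-of-ratios scaling. *Clec4f* had 150.3 and 170.0 reads in WT and 154 and 146 in KO, which is 0.65 on the log2 scale below the shift of all genes.

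The complement C1q chains, made by tissue macrophages and joined in a single complex, had some of the densest gene bodies of the list. *C1qa*, at 388 reads per kb, was the highest of all members, and *C1qc* had 372 and *C1qb* 230.3. The gene-body reads of *C1qa* were 633 and 891 in WT and 783 and 685 in KO. For *C1qb* they were 958 and 1171 in WT and 1393 and 1114 in KO, and for *C1qc* 651 and 875 in WT and 832 and 783 in KO. The WT libraries spanned or overlapped the KO libraries in all 3 genes, and none was called (log2 fold changes -0.04, 0.23 and 0.10), nor was any at an unadjusted p under 0.05 or by edgeR or DESeq2. Promoter-proximally *C1qa* was the only C1q chain called, and the differences between the chains were not tested. *C1qa* had 483 and 495 reads in WT and 875 and 1028 in KO (log2 fold change 0.95, SE 0.29, limma adjusted p = 0.0079), while *C1qc* had 56.2 and 72.0 in WT and 58.3 and 69.8 in KO. *C1qb* had 98.7 and 101 in WT and 147 and 202 in KO, without overlap, but did not pass the test (0.78, SE 0.34, limma adjusted p = 0.062). With median-of-ratios scaling the *C1qa* difference was 0.38 and was not called. The 3 genes stand in a row on the same strand, *C1qc* 2980 bp past *C1qa* and *C1qb* 3601 bp past *C1qc*.

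The 5 genes of MHC class II antigen presentation were all higher in KO. Both KO libraries lay above both WT libraries in all 5 gene bodies, against 27.6% of all active genes, with log2 fold changes from 0.53 to 0.86. The summed gene-body density in KO was 1.51 times that in WT. *H2-Ab1* (chr17:34263227-34269418, mm10), the class II beta chain, rose from 118 and 128 reads in WT to 215 and 232 in KO (log2 fold change 0.86, SE 0.18, limma adjusted p = 0.00059). *Ciita*, the coactivator that switches on class II genes, had 551 and 654 reads in WT and 959 and 783 in KO (0.53, SE 0.14, limma adjusted p = 0.0035). *Cd74*, the invariant chain that guides class II molecules through the cell, had 561 and 654 in WT and 919.7 and 850.2 in KO (0.55, SE 0.13). *H2-Aa*, the alpha chain partner of *H2-Ab1*, had 79.2 and 95 in WT and 156 and 105 in KO, and *H2-Eb1* had 203 and 283 in WT and 354 and 337 in KO. Only *H2-Ab1* passed the fold threshold on the deposited scale, and *H2-Aa* also missed the adjusted p there (0.55, SE 0.23, limma adjusted p = 0.059). The *H2-Aa* change was 0.27 without KO1 and 0.84 without KO2. All 5 passed with median-of-ratios scaling, whose shift of gene bodies is small, *H2-Aa* narrowly (limma adjusted p = 0.048).

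At the promoters of this group, *Ciita* had 2.29 and 3.00 reads in WT and 9.55 and 13.7 in KO, few reads in every library (log2 fold change 1.78, SE 0.51, limma adjusted p = 0.0050). *H2-Aa* had 18.4 and 12 reads in WT and 42.4 and 54.7 in KO (1.63, SE 0.41, limma adjusted p = 0.0013). *H2-Ab1* had 59.7 and 62.0 in WT and 125 and 147 in KO (1.15, SE 0.35, limma adjusted p = 0.0088). These 3 of the 5 were called higher, against 25.8% of all active genes, and the groups did not overlap in any of them. Only *H2-Aa* was also called with median-of-ratios scaling (log2 fold change 1.08, limma adjusted p = 0.041). *Cd74* overlapped between the groups, with 20.7 and 15.0 reads in WT and 14.9 and 27.3 in KO. *H2-Eb1* did not, with 14.9 and 14.0 against 23.3 and 22.8, but did not pass the test.

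**Figure D2:**
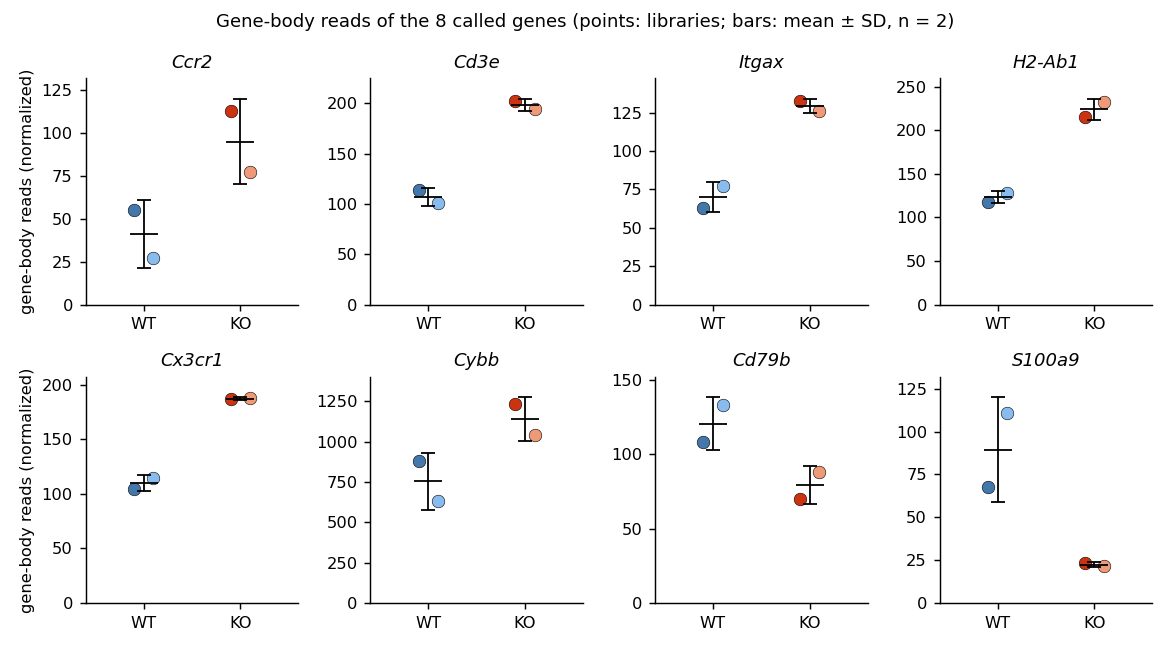
Normalized gene-body reads of the 8 members called in gene bodies, with a point per library and the mean ± SD of the 2 libraries of each genotype, each vertical axis starting at 0. *H2-Ab1*, *Cd3e*, *Itgax* and *Cx3cr1* have narrow groups far apart, and *Ccr2*, *Cybb* and the WT libraries of *S100a9* are spread more widely.

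The genes of monocytes, dendritic cells and phagocytes held 4 of the 6 genes called higher in gene bodies. These were 4 of the 10 active genes of the group, against 10.4% of all active genes. The 4 include *Itgax*, which counts as active only through its KO level, so this share is given as a description. *Ccr2* (chr9:124101918-124109140), the receptor by which monocytes leave the marrow, had 55.1 and 27.0 gene-body reads in WT and 112 and 77.4 in KO. Its log2 fold change of 1.25 (SE 0.30, limma adjusted p = 0.0020) was the largest gene-body rise among the active members and rested on few reads. *Cx3cr1* (chr9:120048683-120068296), the fractalkine receptor of monocytes and some tissue macrophages, rose from 104 and 115 to 187 and 188 (0.77, SE 0.19, limma adjusted p = 0.0024). *Itgax* (chr7:128129526-128150657), the integrin CD11c of dendritic cells, had 63.1 and 77.0 reads in WT and 133 and 126 in KO (log2 fold change 0.88, SE 0.22). Its density was 3.14 and 3.83 reads per kb in WT and 6.60 and 6.27 in KO, so it passed the cutoff of 4 only through the KO libraries, and its difference is given as a description. These 3 were among the 4 lowest densities of the active members, at 11.4, 7.99 and 4.96 reads per kb, and *Itgax* was the active member nearest the cutoff of 4 reads per kb, with *Lyz1* just below it at 1.51. The call of *Ccr2* and that of *Itgax* were lost without KO1, and that of *Cx3cr1* without KO2.

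*Cybb* (chrX:9435252-9487766), the catalytic subunit of the phagocyte NADPH oxidase, had 880.0 and 630.0 gene-body reads in WT and 1236 and 1043 in KO. The groups did not overlap, and the log2 fold change of 0.61 (SE 0.14, limma adjusted p = 0.0016) was just over the threshold. With edgeR, with DESeq2, without WT2 and without KO1 *Cybb* was not called. *Fcgr1*, the high-affinity IgG receptor, had 804 and 794 reads in WT and 1203 and 1059.8 in KO, a change of 0.50 that did not reach the fold threshold. The other uncalled genes of this group, *Ctss*, *Ly86*, *Cd14*, *Lyz2* and *Itgam*, had log2 fold changes from -0.37 to 0.34. *Itgam*, the integrin CD11b, had 320.1 and 345 reads in WT and 309 and 214 in KO. *Lyz2*, the lysozyme of macrophages, had 197 and 235 in WT and 219 and 138 in KO. Lysozyme reads may be split between the near-identical *Lyz1* and *Lyz2*, so both values are uncertain.

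In this group 3 of 10 promoter-proximal values were called higher on the deposited scale, near the 25.8% of all active genes. *Fcgr1* had 8.03 and 7 reads in WT and 25.5 and 19.7 in KO (log2 fold change 1.46, SE 0.46, limma adjusted p = 0.010). *Cx3cr1* had 5.74 and 9 in WT and 19.1 and 24.3 in KO (1.46, SE 0.46, limma adjusted p = 0.011). *Cd14*, the coreceptor for lipopolysaccharide, had 115 and 131 in WT and 211 and 228 in KO (0.83, SE 0.33, limma adjusted p = 0.042). Groups were apart in all 3, and none was called with median-of-ratios scaling. For *Cd14* the gene body did not follow, with 26.4 and 30.0 reads in WT and 28.6 and 22.8 in KO over a short window.

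No leukocyte transcription factor of the 5 passed both thresholds in gene bodies. *Irf8*, which directs monocyte and dendritic cell development, had 2978 and 3369 gene-body reads in WT and 4549 and 4461 in KO (log2 fold change 0.51, SE 0.11, limma adjusted p = 0.00060), without overlap but short of the fold threshold. *Spi1*, which encodes the master regulator PU.1, had 1701 and 1841 in WT and 2119 and 1845 in KO (0.16). *Spic*, a relative of PU.1 needed for iron-recycling macrophages, had 447 and 431 in WT and 661 and 492 in KO (0.38). *Ikzf1* and *Runx1*, factors of early blood and lymphoid development, had log2 fold changes of 0.08 and 0.14. *Ikzf1* had 4270.4 and 4271 reads in WT and 4876 and 4201 in KO, and *Runx1* had 5107 and 5522 against 6119.7 and 5633. None of the 5 was called in gene bodies by limma, edgeR or DESeq2. At an unadjusted p under 0.05, 2 were higher, where 5929 of the 12705 active genes were higher or lower in limma. Promoter-proximally the values of *Irf8* were 483, 659, 646 and 893 in WT1, WT2, KO1 and KO2, and those of *Spi1* were 62.0, 43.0, 74.3 and 125. For *Spic* they were 22.9, 14.0, 37.1 and 19.7, for *Ikzf1* 64.3, 48.0, 49.9 and 103, and for *Runx1* 217, 129, 187 and 254. Of these only *Spi1* had both KO libraries above both WT libraries, and it missed the call (log2 fold change 0.88, limma adjusted p = 0.051), which edgeR made.

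The 6 genes shared by most leukocytes had log2 fold changes from 0.13 to 0.37 in gene bodies, all above 0. None was called by limma, edgeR or DESeq2. In limma 3 were higher at an unadjusted p under 0.05, where 5929 of the 12705 active genes were higher or lower. *Ptprc*, the CD45 phosphatase carried by all leukocytes, had 4142 and 3842 reads in WT and 5747 and 4614 in KO. *Lcp1*, the actin bundling protein plastin of leukocytes, had 4275 and 3944 in WT and 5462 and 5006 in KO. Both had KO libraries above the WT libraries, with log2 fold changes of 0.37 and 0.35. *Laptm5*, a lysosomal membrane protein of blood cells, had 1498 and 1793 in WT and 1988 and 1691 in KO, which overlapped (0.16). *Fcer1g*, the signalling chain of Fc receptors, had a gene-body log2 fold change of 0.31 (SE 0.14). Promoter-proximally 3 of the 6 were called higher, against 25.8% of all active genes. *Coro1a*, an actin regulator of leukocytes, had the most reads of the group, 839.8 and 679 in WT and 1613 and 2082 in KO (log2 fold change 1.28, SE 0.28, limma adjusted p = 0.00015), while its gene body had 239 and 298 in WT and 299 and 322 in KO. The *Coro1a* call held with median-of-ratios scaling (0.71, limma adjusted p = 0.024). *Tyrobp*, the adaptor DAP12, had 52.8 and 47.0 in WT and 118 and 117 in KO (1.22, SE 0.36, limma adjusted p = 0.0063), and its gene-body reads overlapped, with 158 and 165 against 197 and 158. *Ptprc* had 125 and 84.0 in WT and 206 and 162 in KO (0.83, SE 0.33, limma adjusted p = 0.048). The last 2 were not called with median-of-ratios scaling.

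The largest gene-body change among the active members was a fall. *S100a9* (chr3:90692630-90695721), which encodes the calprotectin subunit that fills neutrophils, had 67.7 and 111 gene-body reads in WT and 23.3 and 21.3 in KO. Both KO libraries lay far below both WT libraries, with a log2 fold change of -1.91 (SE 0.30, limma adjusted p = 1.8e-05). Its promoter-proximal reads were few and overlapped, with 3.44 and 6.00 in WT and 2.12 and 4.55 in KO. In KO its density was 11.3 and 10.3 reads per kb, above the cutoff for active genes. Of 7 other active neutrophil and granule genes, 5 fell in gene bodies (71.4%, against 11.4% of all active genes), with a median log2 fold change of -1.47. Their summed density was 100 and 121 reads per kb in WT and 45.7 and 40.4 in KO. *Mpo*, myeloperoxidase of the primary granules, fell most, from 64.3 and 77.0 reads to 18.03 and 9.11 (-2.36, SE 0.35, limma adjusted p = 9.2e-06). The erythroid markers, which share the blood-forming sites of the young liver, also moved, with 4 of 7 lower and a summed density of 126 and 129 reads per kb in WT and 50.3 and 45.6 in KO. Their part in the *S100a9* result was not tested. Some of these neutrophil and erythroid genes may count as active only through the WT libraries. Their falls and the shares called lower are therefore given as a description and are no support for the fall of *S100a9*.

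The 3 antigen receptor genes of lymphocytes did not move together. *Cd3e* (chr9:44998735-45009663), a chain of the T cell receptor complex, rose in gene bodies from 114 and 101 reads to 203 and 194 (log2 fold change 0.88, SE 0.19, limma adjusted p = 0.00065). It also rose at the promoter from 9.18 and 4.00 to 37.1 and 27.3 (2.20, SE 0.45, limma adjusted p = 4.6e-05), and held with median-of-ratios scaling (1.69, limma adjusted p = 0.0097). *Cd79b* (chr11:106311341-106314562), the signalling chain of the B cell receptor, fell from 108 and 133 gene-body reads to 70.0 and 88.1 (-0.60, SE 0.22, limma adjusted p = 0.037), at the fold threshold, and was not called in 9 of 17 alternatives, those without WT2, KO1 or KO2 among them. *Cd79a*, its partner, had 96.4 and 145 in WT and 106 and 77.4 in KO, which overlapped. Among 18 other active lymphocyte genes, 2 rose (11.1%) and 4 fell (22.2%), against 10.4% and 11.4% of all active genes. *Cd3g*, another CD3 chain, rose from 47.0 and 71.0 to 127 and 109 (1.02, limma adjusted p = 0.0018). *Ebf1*, a factor of B cell development that stromal cells also express, fell from 4076 and 4044 to 1520.1 and 1265 (-1.55, limma adjusted p = 3.4e-10). Whether *Ebf1* passed the cutoff for active genes in the KO libraries was not checked. Its fall, and the 22.2% that counts it, are therefore given as a description. *Hmox2*, the constitutive haem oxygenase, is expressed in most tissues, so its value is no measure of leukocytes. It had 3296 and 3069 gene-body reads in WT and 2858 and 2246 in KO (-0.33, below the fold threshold).

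Over the whole list, 13 of 44 members were called higher promoter-proximally and none lower, where 25.8% and 2.20% of all active genes were. None of the 44 was lower at an unadjusted p under 0.05 either, nor called lower by edgeR or DESeq2. Their median log2 fold change of 0.64 lay close to the 0.56 of all active genes. With median-of-ratios scaling 3 members remained called higher, *Cd3e*, *H2-Aa* and *Coro1a*, and none was called lower (4 were lower at an unadjusted p under 0.05), where 4.99% and 7.41% of all active genes were, and the members' median was 0.09. Both KO libraries lay above both WT libraries for 25 members and below them for 1, against 61.9% and 6.72% of all active genes. Each of the 13 calls was lost when at least 1 library was left out, and the number of members called higher, these or others, was 4 without WT1, 2 without WT2, 12 without KO1 and 1 without KO2. The promoter-proximal counts of the members thus stood near the background, and 3 members, *Cd3e*, *Cx3cr1* and *H2-Ab1*, were called in both regions.

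**Figure D3:**
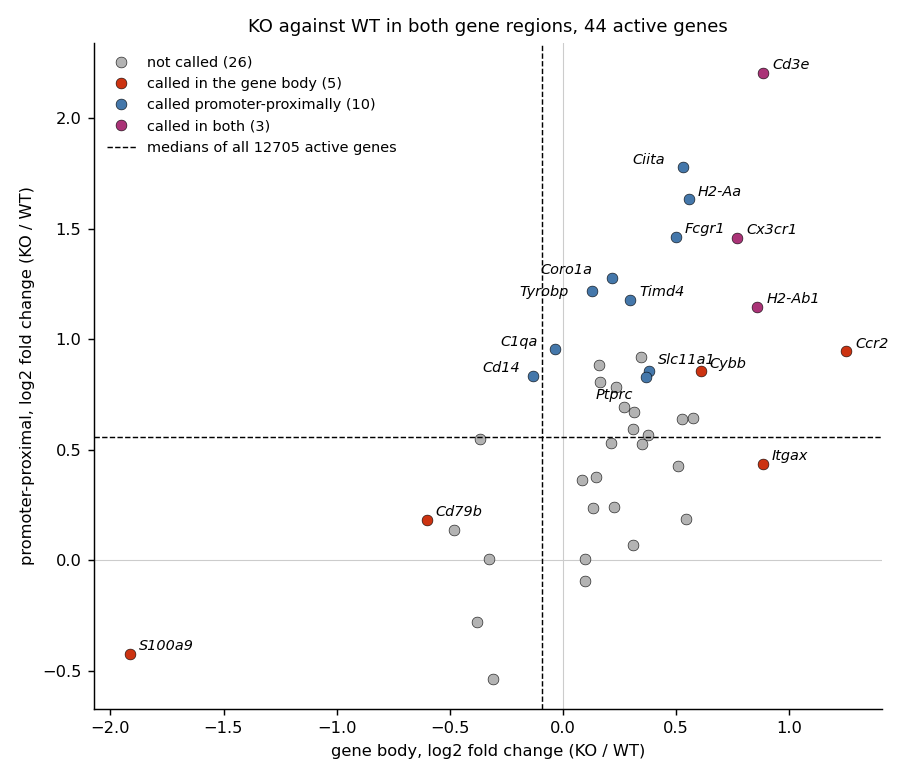
Log2 fold change (KO over WT) of the 44 active members in gene bodies (horizontal) and promoter-proximal regions (vertical), with dashed lines at the medians of all active genes, -0.09 and 0.56. Most members lie to the right of the vertical line but on both sides of the horizontal line, and *S100a9* stands alone at the lower left.

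Levels and pausing are given beside those of all active genes, as a description. The median gene-body density of the 44 members over the 4 libraries was 52.1 reads per kb, against 37.1 over all active genes, and ranged from 4.96 for *Itgax* to 388 for *C1qa*. The pausing index, the promoter-proximal density divided by the gene-body density, had a median over the members of 21.6 and 16.2 in the WT libraries and of 20.7 and 36.7 in KO1 and KO2. Over all active genes it was 49.3, 44.3, 61.1 and 85.0, so the members were lower in every library, and KO2 was the highest library in both sets. *Fcgr1* had the lowest indices in WT, 2.01 and 1.77, with 4.26 and 3.75 in KO, and *Coro1a* the highest, 280.2 and 181 in WT and 429 and 515 in KO. *C1qc* stayed between 2.96 and 3.77 in all 4 libraries.

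The deposited list of 2282 enhancers, called from the 4 libraries together, gives positions and no values per library. For 9 of the 44 members at least 1 enhancer of the list had the member as its closest gene (20.5%, against 10.9% of active genes). *Ly86*, a partner of the receptor RP105, had 6, all at least 94005 bp from its start, and *Ptprc* and *Cd163* had 3 each. Distances run from the start of the gene. The nearest enhancer of *Ly86* begins at position 37439350, past the end of that gene at 37419036. *H2-Eb1*, *Fcgr1* and *H2-Aa* had the nearest, at 3582, 6367 and 7054 bp. Within 50 kb, 11 members (25.0%) had an enhancer, against 9.83% of active genes. Links by 4DGenome contacts went the other way, with 25 members (56.8%) against 75.8%. *Cd163*, the Kupffer gene with a lower KO level, had its 3 enhancers between 23589 and 32699 bp away.

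Other macrophage and phagocyte genes, and genes of signals that Kupffer cells receive, were measured as well. Of 47 active macrophage and phagocyte genes outside the list, 8 rose in gene bodies (17.0%, against 10.4% of all active genes). Their median log2 fold change was 0.31, next to the 0.28 of the members. *Id3*, a factor of Kupffer cell identity, rose most, from 245.5 and 300 reads to 486 and 524 (0.89, SE 0.15, limma adjusted p = 4.9e-05). Of 8 ligands of the CSF1 receptor and other niche signals, 6 rose (75.0%). *Ccl2*, the ligand of the *Ccr2* receptor, led them, from 3.44 and 13.0 reads to 45.6 and 44.03 (2.54, SE 0.47, limma adjusted p = 0.00012). Which cells transcribed the genes of these 2 lists was not tested.

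Markers of the other liver cells moved between the genotypes, where 10.4% of all active genes were called higher and 11.4% lower in gene bodies. Of 12 hepatocyte markers 7 fell, and their summed gene-body density was 33106 and 35401 reads per kb in WT and 16737 and 17068 in KO. *Apoa1* fell most, from 9725 and 11363 reads to 3192 and 3002 (-1.76, SE 0.11, limma adjusted p = 3.9e-11), and *Alb* fell from 67673 and 75584 to 38678 and 38574 (-0.89, SE 0.13, limma adjusted p = 1.0e-05). Of 10 liver endothelial markers 8 rose, with sums of 1198 and 1274 in WT and 2166 and 1975 in KO. *Tek*, the angiopoietin receptor, rose most (1.08, SE 0.11, limma adjusted p = 4.8e-08). All 10 stellate cell markers rose, with sums of 177 and 248 in WT and 546 and 539 in KO, most of all *Ngfr*, a neurotrophin receptor of these cells (1.87, SE 0.15, limma adjusted p = 1.2e-09). None of the active markers was at 0 in all libraries, which the cutoff for active genes ensures. The summed density of the members was 3350.4 and 3811 in WT and 4355 and 3776 in KO, so it overlapped between the groups, with a KO to WT ratio of 1.14 against 0.49 for hepatocyte, 1.68 for endothelial and 2.55 for stellate markers. The part of these shifts in the members' values was not tested.

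**Figure D4:**
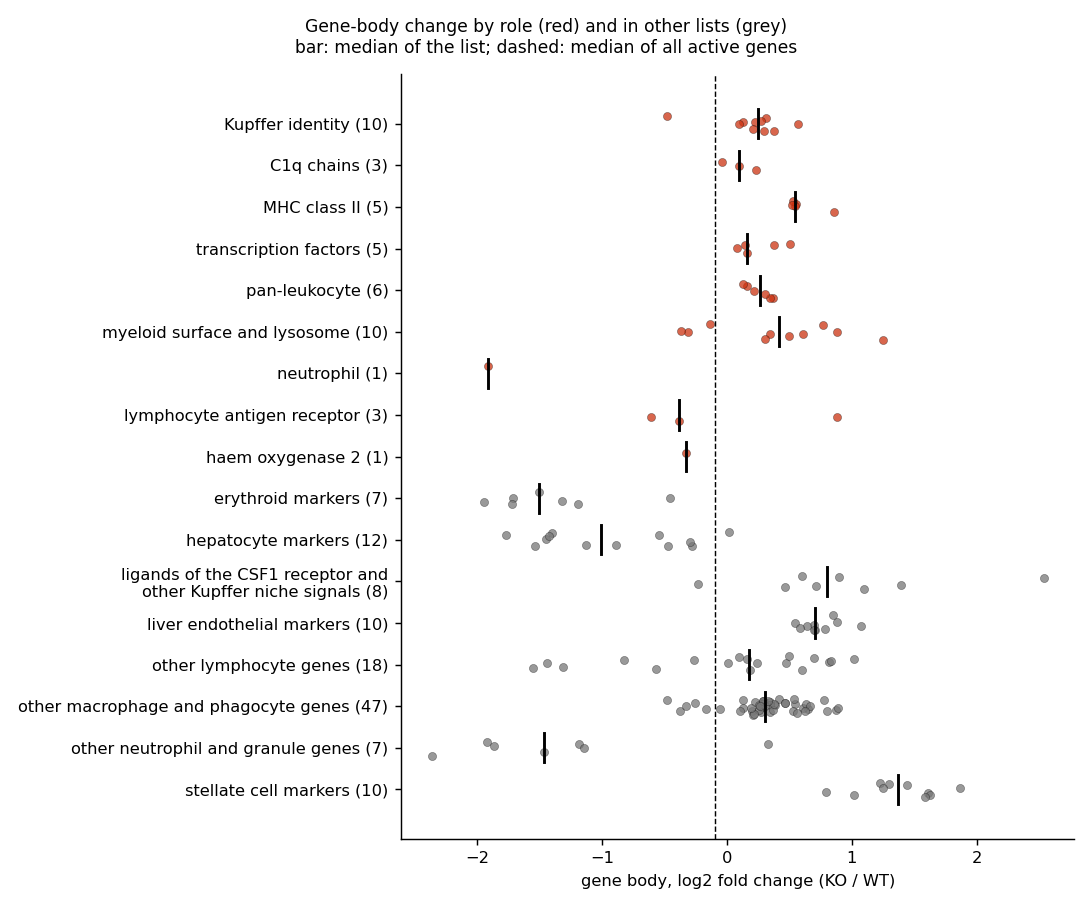
Gene-body log2 fold change (KO over WT) of each active gene, for the roles within the list (red) and for the other lists (grey), with the number of genes in parentheses, a bar at the median of each and a dashed line at the median of all active genes (-0.09). The Kupffer, C1q, transcription factor and pan-leukocyte genes have medians from 0.10 to 0.26, MHC class II genes lie to its right at a median of 0.55, and the endothelial and stellate markers lie farther right at 0.70 and 1.37.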

How the data were processed

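The authors aligned trimmed PRO-seq reads to mm10 (Bowtie2), dropped reads of ribosomal RNA or low mapping quality, and used NRSA to count reads per RefSeq transcript. The deposited WT2 column holds plain read counts, since its factor is 1. The deposited columns of the other libraries hold normalized signal, in which the authors had multiplied counts by 1.15 (WT1), 1.06 (KO1) and 1.52 (KO2). The deposited densities are the same signal divided by length. Undoing the factors gave whole reads for 100% of 41640 values per library (within 0.01). The deposited enhancer list gives positions and distances in bp and was made by the authors from pooled libraries. No column of other samples was present.

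A symbol was represented by its transcript with most promoter-proximal signal. A gene counted as active with any promoter-proximal read and over 4 normalized gene-body reads per kb. For all 12705 active genes, limma 3.58.1 in R 4.3.3 (empirical Bayes with a trend) compared KO and WT on log2 of the deposited values plus 1. P-values were adjusted after Benjamini and Hochberg, and a call took an adjusted p below 0.05 together with a log2 fold change of over 0.6 in size. Each SE is of the log2 fold change, and each n is 2 libraries per genotype. Alternatives were pseudocounts of 0.1 and 10, other filters, median-of-ratios and TMM scaling within a region, the recovered reads in DESeq2 1.42.0 and in the quasi-likelihood test of edgeR 4.0.16, the transcript chosen by gene body, a replicate block, no fold threshold, and each library left out in turn. Python 3.11.15 with pandas 2.3.3, numpy 2.4.6 and matplotlib 3.10.9 made tables and plots.

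On data simulated with 12705 genes, limma recovered 99% of gene-body changes of 1 (log2) and 100% of those of 2, and 34% and 90% of promoter-proximal ones. For the promoter-proximal changes edgeR recovered 92% and 100%, and DESeq2 63% and 98%. The simulated spread between libraries was a fixed value not taken from these data, and only genes above a set mean read count were changed. These rates therefore do not give the recovery in these data, least of all for members with few reads.

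The members and lists were chosen with earlier results of these data known. Of the 46 members, 45 were found in the table, with values per library for those called or in the Kupffer, C1q, MHC class II and transcription factor groups. From each other list the called gene with the largest gene-body change in each direction is named, with *Hdac3*, *Actb* and *Alb* for reference. The list of cholangiocyte markers and 1 neighbouring gene are not reported here. Values per library of *Itgam*, *Lyz2*, *Lcp1*, *Laptm5*, *Cd79a* and *Hmox2* are given beyond this rule and were chosen after their values were seen. Promoters shown are of called members matched to a RefSeq start within 100 bp, by the largest gene-body change. ChIP-seq and other data of the study were not used here.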

Additional observations from a re-analysis of the deposited data

How the results depend on the processing

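In gene bodies, 6 members were called higher and 2 lower. With median-of-ratios scaling within the region, with TMM scaling and with gene body median-of-ratios scaling these counts were 11 and 1, and without the fold threshold 19 and 4. DESeq2 and a pseudocount of 10 each gave 1 lower. With no filter on activity none was called in either direction by limma. At an unadjusted p under 0.05, 9 were then higher and 2 lower, where 6459 of all 20642 genes were higher or lower. Among active genes edgeR called 5 higher and 2 lower, and DESeq2 5 and 1. Leaving out each library gave 3 to 9 higher and 1 to 3 lower. Without KO1, 3 were called higher, and without WT2 or KO2, 1 was called lower. The median log2 fold change was from 0.16 to 0.40 when a library was left out.

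Promoter-proximally, 13 members were called higher. The count was 3 with median-of-ratios and with TMM scaling, where the median of 0.64 moved to 0.0902 and 0.090, by construction since these scalings remove the shift of all genes. DESeq2 gave 8 and edgeR 14 among active genes. No filter gave 0 in limma, with 13 higher at an unadjusted p under 0.05, where 4606 of all 20642 genes were higher or lower. Leaving out each library gave 1 to 12, with 4 without WT1, 2 without WT2 and 1 without KO2.

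*H2-Ab1*, *Cd3e* and *S100a9* kept their gene-body call in all alternatives but the 1 with no filter. *Itgax* and *Cx3cr1* could not be fitted under the filter on reads scaled to 10000000. The cause of the other changes was not tested.

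Same-numbered libraries share only a number, and the correlation of the deviations of WT1 and KO1 was 0.02 in gene bodies and -0.11 promoter-proximally. With the replicate block the counts were 6 and 2 in gene bodies and 10 higher promoter-proximally. With the crossed replicate block, chosen after seeing the data, they were 6, 2 and 19. Depth limits promoter-proximal values most, as *Ccr2* and *Ciita* had under 15 reads there in every library.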
